A study of Mus musculus with 6 samples.

Results

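Endothelial genes of the pancreatic islet were examined in RNA sequencing of islets from WT (FXR+/+) and FXR knockout (FXR-/-) mice. The 10 genes were *Plvap*, *Pecam1*, *Kdr*, *Flt1*, *Cdh5*, *Esm1*, *Tie1*, *Tek*, *Eng* and *Emcn*, found by their symbols among the 19342 genes of the count table. FXR is the farnesoid X receptor, a nuclear receptor for bile acids that is encoded by *Nr1h4*, and the experiment asked which genes differ in islets without it. The 6 libraries came from mice aged 3 months, with 1 female and 2 males of each genotype, called female 1, male 1 and male 2 after the numbers in the labels. The knockout mice were of the C57Bl/6 strain, and the islets were collected after digestion of the pancreas with collagenase. The labels name no Cre driver, no treatment other than isolation, and do not say whether a library holds islets of 1 mouse or of several. The p-values here therefore take libraries as the units and cannot be read as measuring the spread between single mice. In bulk RNA of islets, fewer cells of a type and less RNA per cell cannot be told apart.

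Islets are threaded by a dense bed of fenestrated capillaries, through which beta cells sense glucose and release insulin. Beta cells make VEGF-A, and the VEGF receptors of the endothelium, KDR and FLT1, respond to it, while the angiopoietins act through TEK (TIE2) and its partner TIE1. Endoglin, the product of *Eng*, is a co-receptor for BMP9 on endothelial cells. PLVAP forms the diaphragms that span fenestrae, PECAM1 and CDH5 (VE-cadherin) join neighbouring endothelial cells, EMCN is a sialomucin of capillaries and veins, and ESM1 is a secreted proteoglycan that binds growth factors.

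The libraries held 20629306 to 30139235 counts, and levels are given as CPM, counts relative to the TMM-scaled size of each library. All 10 genes were counted in every library and passed the filter on low counts. The genes are marks of endothelium in general, and the tissue itself was read from other lists: the insulin genes *Ins1* and *Ins2* took 17.5% to 23.9% of counts, and 19 acinar genes took 5.15% to 14.9%. Acinar cells are the enzyme-secreting cells around the islet. *Nr1h4*, the targeted gene, was at 14.2, 13.6 and 12.2 CPM in WT female 1, male 1 and male 2 and at 5.67, 7.62 and 5.80 CPM in the matching knockout libraries, which is -1.07 ± 0.16 on the log2 scale (SE; adjusted p = 0.216, edgeR).

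The members lie on 7 autosomes in the GRCm38 assembly with GENCODE vM21. *Plvap* (chr8:71497765-71511752, minus strand) has 6 exons in 1 transcript and overlaps 1819 bases of *Gtpbp3*, which lies on the opposite strand and was at 16.0 to 19.5 CPM. *Esm1* (chr13:113209659-113218098, plus strand) has 3 exons and lies within *Gzmk* on the opposite strand. *Gzmk* was at 0 to 0.126 CPM. *Eng* (chr2:32646595-32682669, plus strand) overlaps the end of *Fpgs* by 61 bases. *Cdh5* (chr8:104101625-104144511, plus strand) overlaps the antisense gene *Gm29682*. Since the sources used here do not say that strand was used in counting, reads within these overlaps cannot be assigned to 1 of the genes. The other members, *Pecam1* on chromosome 11, *Kdr* and *Flt1* on chromosome 5, *Tie1* and *Tek* on chromosome 4 and *Emcn* on chromosome 3, overlap no annotated gene.

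The promoters of 7 members were in the RefSeq table for GRCm38.p6. *Plvap*, *Pecam1* and *Cdh5* are not shown. The 250 bases before the start of transcription are printed for *Emcn* and *Tek*, which had the smallest p-values among these 7, for *Tie1*, which held the most ETS cores, and for *Kdr*, which had the smallest fold change. ETS factors such as ERG and FLI1 are regulators of endothelial genes and bind around the core GGAA. Capitals mark this core on either strand. The windows are chr3:137340828-137341077 (plus strand) for *Emcn*, chr4:94739039-94739288 (plus strand) for *Tek*, chr4:118489850-118490099 (minus strand) for *Tie1* and chr5:75978456-75978705 (minus strand) for *Kdr*, each written 5′ to 3′.
Emcn: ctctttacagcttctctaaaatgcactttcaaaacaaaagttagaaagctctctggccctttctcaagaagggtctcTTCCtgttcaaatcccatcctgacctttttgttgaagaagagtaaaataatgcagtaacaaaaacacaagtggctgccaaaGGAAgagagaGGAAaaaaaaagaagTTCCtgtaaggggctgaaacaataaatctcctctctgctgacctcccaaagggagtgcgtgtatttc
Tek: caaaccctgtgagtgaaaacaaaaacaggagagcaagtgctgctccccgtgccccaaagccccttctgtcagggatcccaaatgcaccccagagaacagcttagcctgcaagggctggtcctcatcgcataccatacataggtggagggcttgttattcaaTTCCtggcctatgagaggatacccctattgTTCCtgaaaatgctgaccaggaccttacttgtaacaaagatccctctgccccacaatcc
Tie1: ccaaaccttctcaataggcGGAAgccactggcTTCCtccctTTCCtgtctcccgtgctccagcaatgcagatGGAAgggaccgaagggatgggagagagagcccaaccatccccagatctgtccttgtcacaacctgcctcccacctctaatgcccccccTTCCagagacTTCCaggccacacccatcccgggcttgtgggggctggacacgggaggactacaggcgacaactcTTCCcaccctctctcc
Kdr: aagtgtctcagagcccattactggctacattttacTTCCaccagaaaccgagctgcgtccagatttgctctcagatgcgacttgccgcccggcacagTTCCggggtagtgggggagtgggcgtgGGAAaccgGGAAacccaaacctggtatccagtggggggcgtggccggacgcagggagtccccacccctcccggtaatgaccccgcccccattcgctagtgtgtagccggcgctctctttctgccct

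The core GGAA was found 4 times in the window of *Emcn*, 2 times in that of *Tek*, 7 times in that of *Tie1* and 4 times in that of *Kdr*. The windows of *Flt1*, *Esm1* and *Eng* held it 4, 3 and 3 times. The median over 32851 promoters of the same length was 3, and 93.4% of them held the core at least 1 time. At least 7 cores, the number of *Tie1*, were found in 3.82% of promoters. The longer ETS site CCGGAAGT was in none of the 7 windows and in 2.88% of all promoters. The hexamer AGGTCA, to which nuclear receptors bind, was found 2 times upstream of *Emcn*, with first bases 153 and 29 bases before the start, and not in the other 6 windows. It was in 14.0% of all promoters. The FXR response element as an exact inverted repeat of that hexamer with a spacer of 1 base (IR-1) was in none of the 7 windows and in 2 of all 32851 promoters. These matches describe letters in these windows and say nothing of binding.

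Per length of the longest coding transcript, *Plvap* was the most abundant member in WT, at 70.0 ± 9.77 CPM per kb (SD, n = 3). *Esm1* followed at 42.8 ± 4.37 and *Kdr* at 22.9 ± 1.54 CPM per kb, and neighbours in this top part of the order did not overlap between libraries. *Pecam1*, *Emcn*, *Eng* and *Flt1* were at 14.4 ± 3.28, 14.2 ± 1.69, 14.1 ± 1.18 and 13.4 ± 0.416 CPM per kb, and neighbours among these 4 overlapped. *Tie1* and *Cdh5*, at 8.43 ± 1.07 and 7.37 ± 1.20 CPM per kb, overlapped as well, and *Tek* was lowest at 2.25 ± 0.228 CPM per kb. In FXR knockout islets the same 3 genes stood at the top, with *Plvap* at 114 ± 31.1, *Esm1* at 54.1 ± 16.5 and *Kdr* at 28.4 ± 6.10 CPM per kb. *Tie1*, *Cdh5* and *Tek* again stood at the bottom of the order, with *Tek* at 3.55 ± 0.602 CPM per kb. Neighbours in the order from *Kdr* down to *Cdh5* overlapped in knockout libraries.

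All 10 members had a higher mean in FXR knockout than in WT islets, by log2 fold changes (knockout over WT) of 0.30 to 0.69, and none passed the threshold of an adjusted p under 0.05. The median log2 fold change of the 10 was 0.55, against 0.01 over all 14619 genes tested. In edgeR's quasi-likelihood test with terms for sex and genotype, no member and 0% of all genes did so after Benjamini-Hochberg adjustment over all genes. At an unadjusted p under 0.05, 8 of the 10 members were higher, against 6.18% of all genes. The 3 knockout libraries lay above the 3 WT libraries for 6 members, against 8.01% of all genes. In 9 of 10 members the knockout library was higher in each of the 3 same-numbered pairs, against 20.4% of all genes.

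The VEGF receptors were among the members with the smallest fold changes. *Kdr*, the main signalling receptor for VEGF-A, was at 128, 146 and 132 CPM in WT female 1, male 1 and male 2 and at 140.0, 209 and 156 CPM in the knockout libraries in the same order. The knockout female lay below WT male 1, so the groups overlapped, and the log2 fold change was 0.30 ± 0.13 (SE, adjusted p = 0.480). *Flt1*, whose product binds VEGF-A with little signalling, was at 92.4, 89.8 and 95.5 CPM in WT and at 98.5, 177 and 102 CPM in knockout islets. The groups did not overlap, but only knockout male 1 stood well above the WT libraries, which lay close to each other. The log2 fold change of *Flt1* was 0.42 ± 0.20 (adjusted p = 0.491).

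The angiopoietin receptors had larger fold changes. *Tek* was at 10.7, 11.4 and 9.31 CPM in WT and at 15.3, 19.7 and 14.5 CPM in knockout islets. All 3 knockout libraries were above all WT libraries, with a log2 fold change of 0.66 ± 0.16 (adjusted p = 0.333). *Tie1* was at 33.5, 40.9 and 32.7 CPM in WT and at 40.9, 68.4 and 44.2 CPM in knockout islets. The knockout female and WT male 1 were level for *Tie1*, and the log2 fold change was 0.51 ± 0.18 (adjusted p = 0.450). *Eng*, the BMP9 co-receptor, was at 44.5, 52.6 and 47.9 CPM in WT and at 56.9, 104 and 65.9 CPM in knockout islets. The groups of *Eng* did not overlap, and its log2 fold change was 0.62 ± 0.17 (adjusted p = 0.399).

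Of the structural and junction genes, *Plvap* showed the largest fold change of the 10. It was at 132, 161 and 125 CPM in WT and at 182, 297 and 201 CPM in knockout islets. The lowest knockout library was above the highest WT library, and the log2 fold change was 0.69 ± 0.17 (adjusted p = 0.336). *Cdh5* was at 30.5, 33.6 and 24.2 CPM in WT and at 36.5, 64.6 and 37.1 CPM in knockout islets. The groups did not overlap, with 2 of the knockout libraries just above WT male 1, and the log2 fold change was 0.63 ± 0.23 (adjusted p = 0.457). *Pecam1* was at 44.3, 62.6 and 41.9 CPM in WT and at 57.2, 85.5 and 62.1 CPM in knockout islets. WT male 1 lay above 2 of the 3 knockout libraries, and the log2 fold change was 0.46 ± 0.17 (adjusted p = 0.458).

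*Emcn* had the smallest p-value of the members, 0.00199 unadjusted and 0.287 adjusted in edgeR, with rank 100 among all genes tested. It was at 38.1, 40.3 and 31.9 CPM in WT and at 47.6, 62.5 and 56.8 CPM in knockout islets, so the groups did not overlap. Its log2 fold change was 0.59 ± 0.13. *Esm1*, which is known as a mark of endothelial tip cells, was at 96.4, 93.6 and 79.3 CPM in WT and at 89.6, 153 and 97.7 CPM in knockout islets. The knockout female was below 2 of the WT libraries, and the log2 fold change was 0.32 ± 0.20 (adjusted p = 0.555). *Esm1* was the 1 member that was lower in the knockout female than in the WT female.

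**Figure D1:**
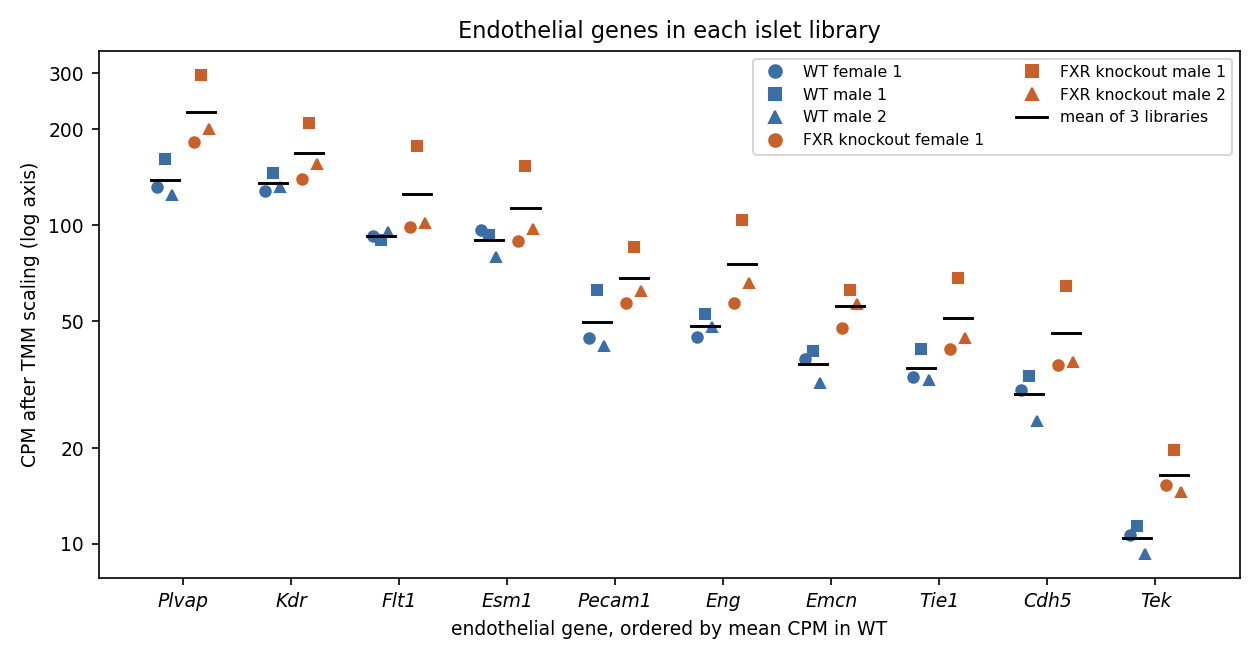
CPM after TMM scaling (log axis) of the 10 endothelial genes in each library, with WT in blue, FXR knockout in orange, symbols for female 1, male 1 and male 2, and a bar at the mean of 3 libraries. Knockout male 1 is the highest of the 6 libraries for all 10 genes.

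The summed level of the 10 genes was 650.4, 732 and 619 CPM in WT female 1, male 1 and male 2 and 765, 1241 and 836 CPM in knockout female 1, male 1 and male 2. The sums did not overlap, with means of 667 ± 58.0 and 947 ± 257 CPM (SD, n = 3), a ratio of 1.42. The exact permutation test over 3 libraries against 3 cannot give less than p = 0.1 (two-sided). Knockout male 1 was the highest of the 6 libraries for all 10 members, against 24.7% of all genes. Without it the ratio of the sums was 1.20.

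Leaving out knockout male 1 kept the direction of all 10 members and lowered every fold change. At an unadjusted p under 0.05, 4 of 10 members were then higher, against 3.43% of all genes, with *Eng* at a log2 fold change of 0.37, *Emcn* at 0.51, *Plvap* at 0.48 and *Tek* at 0.50. The fold changes moved by over 1.5 times for *Esm1* (0.05), *Flt1* (0.11), *Kdr* (0.14), *Cdh5* (0.31), *Tie1* (0.27), *Pecam1* (0.30) and *Eng* (0.37). The remaining knockout libraries lay above WT for 7 members, against 11.2% of all genes. Without WT male 2, 4 of 10 members were higher at an unadjusted p under 0.05, against 3.97% of all genes, with a median log2 fold change of 0.42.

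**Figure D2:**
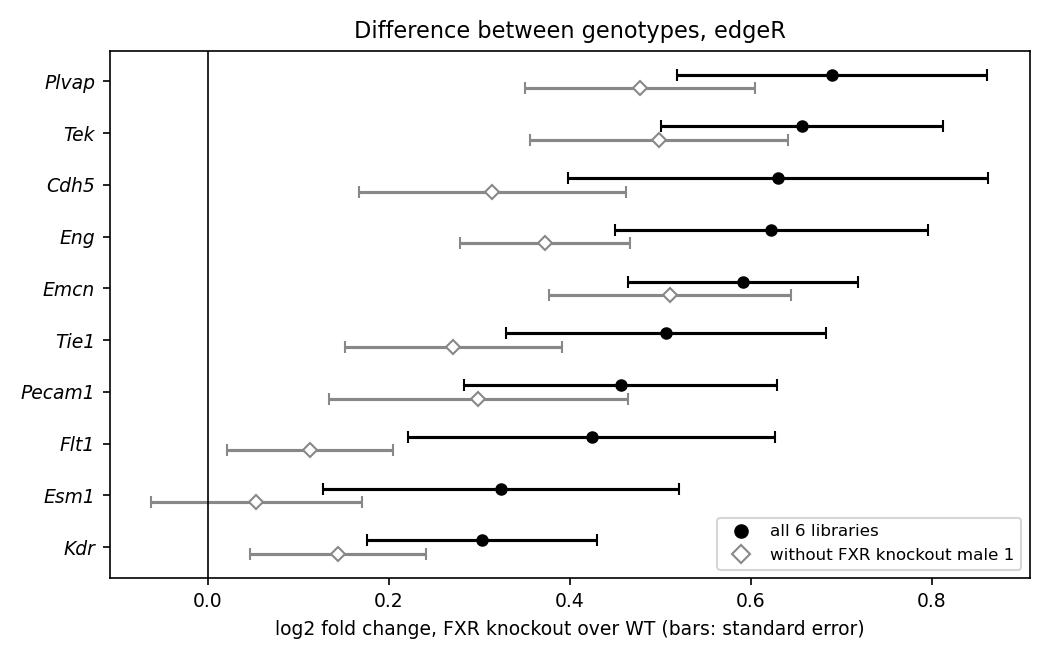
Log2 fold change of FXR knockout over WT with its standard error from edgeR for the 10 genes, with all 6 libraries (black circles) and without knockout male 1 (open diamonds). The values with all libraries run from 0.30 for *Kdr* to 0.69 for *Plvap*, and those without knockout male 1 from 0.05 for *Esm1* to 0.51 for *Emcn*.

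Same-numbered libraries of the genotypes deviated together. For female 1 the number cannot be told apart from sex, and both male 1 libraries had the highest acinar share of their genotype. With the replicate number as a block, 20 genes (0.137% of those tested) were higher at an adjusted p under 0.05 and 3 were lower. No member was among them in edgeR, with adjusted p-values from 0.0532 for *Plvap* to 0.325 for *Esm1*, and 9 of 10 members were higher at an unadjusted p under 0.05, against 9.82% of all genes. DESeq2 without the block called *Plvap* (adjusted p = 0.00914) and *Emcn* (adjusted p = 0.00958), against 0.84% of the genes to which it gave an adjusted p. DESeq2 with the block, an alternative chosen after seeing the data, called 7 members, all but *Kdr*, *Flt1* and *Esm1*, against 1.17% of such genes. The interaction of genotype and sex gave no member a p under 0.05, with the smallest unadjusted edgeR p at 0.134 for *Esm1*, and rests on 1 female of each genotype.

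The acinar share was higher in both libraries numbered male 1 (14.4% in WT and 14.9% in knockout) than in the others. With a term for acinar RNA in the edgeR fit, all 10 members were still higher, by log2 fold changes of 0.14 to 0.51, and 5 were at an unadjusted p under 0.05, against 4.98% of all genes. The fold change moved by over 1.5 times for *Pecam1* (0.25), *Tie1* (0.32), *Cdh5* (0.37), *Kdr* (0.20) and *Esm1* (0.14). Computed as CPM over genes other than insulin and acinar genes, the summed level was 925, 1051 and 895 in WT and 1110.5, 1666 and 1182 in knockout libraries, which again did not overlap. The part of acinar RNA in the difference was not tested beyond this.

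The balance among the members was compared by setting each gene against the mean log2 level of the other members within its library. *Plvap* stood at 1.50, 1.63 and 1.53 above that mean in WT and at 1.72, 1.77 and 1.76 in knockout libraries. The relative log2 level of *Plvap* was thus 0.20 higher in knockout islets, without overlap. *Kdr* stood at 1.46, 1.47 and 1.62 in WT and at 1.30, 1.21 and 1.35 in knockout libraries. *Esm1* stood at 1.00, 0.76 and 0.81 in WT and at 0.59, 0.71 and 0.61 in knockout libraries. Relative to the other members, *Kdr* was 0.23 lower and *Esm1* 0.22 lower on the log2 scale, each without overlap. The exact permutation p was 0.1 for each of these 3, the smallest that 3 against 3 libraries allow. With 10 such comparisons, it was 0.333 after Benjamini-Hochberg adjustment. Relative levels cancel out over the 10 genes in each library, so a gene that stands higher sets others lower. The differences of *Plvap*, *Kdr* and *Esm1* are therefore not separate results. The other 7 members overlapped between genotypes, with differences of -0.13 for *Flt1* to 0.14 for *Tek*. These limits moved with single libraries: *Flt1* was at -0.23 without WT male 1, -0.03 without WT male 2, -0.21 without knockout male 1 and -0.07 without knockout male 2, and *Tek* at 0.05 without knockout female 1 and 0.22 without knockout male 1.

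The exon counts gave the same direction within the members. Of 131 exons listed for the 10 genes, 21 had at least 10 counts in every library, the shortest being 288 bases long. All 71 exons under 150 bases had at most 7 counts in any library. In all 21 exons the mean was higher in knockout islets, by log2 ratios of 0.07 to 0.81, against 52% of all exons with at least 10 counts in every library. The knockout libraries lay above WT in 10, against 6.73%. These exons share reads of the same libraries with the gene counts and are no independent test. The 3 well-counted exons of *Plvap* had log2 ratios of 0.58, 0.77 and 0.74, while those of *Esm1* had 0.30 and 0.27.

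*Flt1* is annotated with a membrane form of 30 exons and a soluble form of 13 exons that ends earlier and acts as a trap for VEGF-A. The membrane form's own exons held 667, 445 and 901 counts in WT and 698, 878 and 723 counts in knockout libraries. The exons of both forms held 163, 169 and 217 counts in WT and 158, 266 and 181 counts in knockout libraries. The log2 ratio of the first to the second was 1.83 ± 0.373 in WT and 1.95 ± 0.214 in knockout islets (SD, n = 3), and the groups overlapped (exact permutation p = 0.7, two-sided). The difference of 0.13 turned to -0.09 without WT male 1. Nearly all counts of the membrane form's own exons lay in its last exon, of 2211 bases. That exon held 665, 439 and 891 counts in WT and 693, 870 and 719 counts in knockout libraries. The ratio therefore sets mostly this end exon against shared exons and does not read the use of the other membrane exons.

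Ligand genes were next, in a list that holds those of the VEGF and angiopoietin receptors and also *Apln* and *Adm*, whose products bind other receptors. *Vegfa* was at 48.5, 50.7 and 64.0 CPM in WT and at 51.6, 37.1 and 41.4 CPM in knockout libraries, a log2 fold change of -0.34 ± 0.15 (adjusted p = 0.486). Unlike the endothelial genes, its lowest library was knockout male 1. *Vegfb* was at 32.0, 28.2 and 32.1 CPM in WT and at 36.0, 36.8 and 34.4 CPM in knockout libraries, without overlap and with a log2 fold change of 0.22 ± 0.09. *Angpt2*, a ligand of TEK that endothelial cells release, was at 5.75, 7.73 and 6.66 CPM in WT and at 9.19, 8.94 and 8.41 CPM in knockout libraries. The groups of *Angpt2* did not overlap, and its log2 fold change was 0.41 ± 0.15 (adjusted p = 0.457). *Vegfc*, *Pgf*, *Angpt1* and *Apln* overlapped between genotypes, with log2 fold changes of 0.11, -0.08, 0.25 and 0.62. *Vegfd*, *Angpt4* and *Adm* had too few counts to be tested. Of the 7 ligand genes tested, 2 were higher at an unadjusted p under 0.05, against 6.18% of all genes.

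Of 9 other endothelial receptors, 8 were higher in knockout islets and 3 at an unadjusted p under 0.05, against 6.18% of all genes. The VEGF receptor *Flt4* and the co-receptors *Nrp1* and *Nrp2* had log2 fold changes of 0.29, 0.20 and 0.48, each with overlapping libraries. *Ramp2*, a partner of the adrenomedullin receptor, was at 7.38 ± 0.819 CPM in WT and 9.43 ± 0.630 CPM in knockout islets (SD, n = 3). *Ptprb*, the phosphatase that acts on TEK, was at 53.5 ± 5.47 CPM in WT and 72.2 ± 17.4 CPM in knockout islets, and neither *Ramp2* nor *Ptprb* overlapped between genotypes.

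In the list of BMP9 and endoglin pathway genes, 5 of 10 tested genes were higher and 5 lower. This list also holds the TGF-β receptor genes *Tgfbr2* and *Tgfbr3*, so its counts are not of BMP9 signalling alone. The ligand gene *Gdf2* had 1 count in all 6 libraries together. *Acvrl1*, the receptor kinase for BMP9, was at 12.3, 13.3 and 14.7 CPM in WT and at 14.1, 26.0 and 17.2 CPM in knockout libraries, a log2 fold change of 0.48 ± 0.18 (adjusted p = 0.457). *Bmpr2* and *Acvr2a*, which encode type II receptors, had log2 fold changes of 0.01 and -0.29. *Tgfbr2* did not overlap, at 11.6 ± 2.34 CPM in WT and 17.5 ± 2.19 CPM in knockout islets, while *Tgfbr3* was lower, at 27.0 ± 3.26 against 21.2 ± 3.09 CPM (SD, n = 3). The target genes *Id1* and *Id3* had log2 fold changes of -0.25 and 0.13. At an unadjusted p under 0.05, 2 genes were higher and 2 were lower (*Tgfbr3* and *Acvr2a*), against 6.18% of all genes higher and 4.15% lower.

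Other endothelial genes were higher as well, with a lower median than the members. All 20 listed genes of endothelial cells had a log2 fold change above 0, with a median of 0.40. The smallest was that of *Nostrin*, at 0.0008 ± 0.14. Of the 20, 6 were at an unadjusted p under 0.05 (6.18% of all genes) and 7 had all knockout libraries above WT (8.01% of all genes). The summed level of the list was 297, 356 and 292 CPM in WT and 358, 521 and 359 CPM in knockout libraries. Knockout female 1 and male 2 were thus just above WT male 1, and knockout male 1 stood apart. *Cd34*, a sialomucin of capillary endothelium, was at 13.5, 19.4 and 15.9 CPM in WT and at 21.3, 26.1 and 22.5 CPM in knockout libraries, a log2 fold change of 0.53 ± 0.12 (adjusted p = 0.310). *Arhgef15* was at 10.8 ± 0.381 CPM in WT and 14.3 ± 1.01 CPM in knockout islets (SD, n = 3), without overlap. Of 12 Notch pathway genes 10 were higher, with a median log2 fold change of 0.20 and 1 gene, *Notch1*, at an unadjusted p under 0.05, a share close to the 6.18% of all genes. *Ephb4*, a receptor of venous endothelium, had the next smallest p of that list, with a log2 fold change of 0.33 ± 0.15. Of 15 transcription factor genes 13 were higher, with a median of 0.18. Only 1 of them, *Epas1*, was at an unadjusted p under 0.05, a share close to the 6.18% of all genes. In 2 of the 15 all knockout libraries were above WT, against 8.01% of all genes. *Epas1* (HIF-2α) was at 83.7 ± 1.74 CPM in WT and 111 ± 30.7 CPM in knockout islets, and *Ets2* had a log2 fold change of 0.25. The ETS factors *Erg* and *Fli1*, whose core motif was counted in the promoters above, had log2 fold changes of 0.38 ± 0.22 and 0.12 ± 0.27, with overlapping libraries.

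All 9 basement membrane genes were higher, with a median log2 fold change of 0.35 and 3 at an unadjusted p under 0.05, against 6.18% of all genes. In 1 of the 9 all knockout libraries were above WT, against 8.01% of all genes. *Lamb1* (laminin β1) had a log2 fold change of 0.42 ± 0.11 and *Col4a2* (collagen IV) one of 0.57 ± 0.20, both with overlapping libraries. *Col4a2* was at 83.4, 124 and 78.2 CPM in WT and at 107, 188 and 134 CPM in knockout libraries, so it was highest in male 1 of both genotypes. Among leukocyte adhesion molecules, *Selp* (P-selectin) was at 0.0852, 0.941 and 0.0946 CPM in WT and at 0.972, 5.78 and 0.294 CPM in knockout libraries. Most of its counts were in knockout male 1, and its log2 fold change of 2.80 carried a standard error of 1.14. *Icam1* had a log2 fold change of 0.65 ± 0.48. The third tested gene of this list, *Vcam1*, was lower at -0.38 ± 0.69, so 2 of 3 were higher, with overlapping libraries in all 3.

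Of the 3 tested genes in the list of lymphatic markers, 1 was higher and 2 were lower. *Lyve1*, a hyaluronan receptor of lymphatic endothelium and of some macrophages, was at 23.1, 20.6 and 23.6 CPM in WT and at 13.5, 15.2 and 12.8 CPM in knockout libraries. All 3 knockout libraries were below all WT libraries, a pattern shared by 7.37% of all genes, with a log2 fold change of -0.70 ± 0.12 (adjusted p = 0.225 in edgeR and 0.00119 in DESeq2). *Prox1*, which is also made by other islet cells, had a log2 fold change of 0.09 and *Reln* one of -0.26, while *Pdpn* and *Mmrn1* had too few counts to be tested. The amount of lymphatic endothelium can therefore not be read from this list.

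Markers of some other cell types were higher beside the members. All 8 pericyte genes were higher, with a median log2 fold change of 0.25. Of these, 1 was at an unadjusted p under 0.05 (6.18% of all genes). None had all knockout libraries above WT (8.01% of all genes). Their summed levels overlapped, at 183 to 215 CPM in WT and 201 to 295 CPM in knockout libraries. *Rgs5*, the largest part of these sums, was at 109, 107 and 108 CPM in WT and at 107, 152 and 108 CPM in knockout libraries. *Notch3* and *Pdgfrb* led that list, with log2 fold changes of 0.50 ± 0.19 and 0.36 ± 0.18. Of 8 macrophage genes 6 were higher, 4 at an unadjusted p under 0.05 (6.18% of all genes), with *C1qc* at 0.45 ± 0.14 and *C1qa* at 0.26 ± 0.09. *Lyz2* and *Mrc1* were lower, at -0.11 ± 0.32 and -0.07 ± 0.40. The macrophage sums, of which *C1qa* was the largest part, overlapped at 111 to 149.5 CPM in WT and 148 to 175 CPM in knockout libraries. Of 19 acinar genes 17 were higher, none at an unadjusted p under 0.05, with *Zg16* at 0.55 ± 0.37 and *Rnase1* at 0.52 ± 0.37. Of 6 ductal genes tested 5 were higher, 3 at an unadjusted p under 0.05 (6.18% of all genes). The ductal sums, which are mostly *Krt7*, overlapped, at 251 to 301 CPM in WT and 266 to 299 CPM in knockout libraries. *Krt7* itself was lower, at 212 ± 13.1 CPM in WT and 184 ± 15.5 CPM in knockout islets, without overlap. *Spp1* (osteopontin) was at 17.0 ± 5.83 CPM in WT and 36.0 ± 3.65 CPM in knockout islets (SD, n = 3). *Sox9* had a log2 fold change of 0.93 ± 0.35. Of 8 beta cell genes 6 were higher and 2 lower, with *Mafa* at 0.57 ± 0.09, *Nkx6-1* at 0.37 ± 0.14, *Slc2a2* at 0.00 ± 0.15, *Iapp* at -0.14 ± 0.54 and *G6pc2* at -0.40 ± 0.19. Red cell and platelet genes were near 0, with sums of at most 3.12 and 4.11 CPM, and log2 fold changes of -0.49 for *Alas2*, 0.43 for *Itga2b* and -0.21 for *Gp1ba*. No marker list had a gene at 0 in all libraries, and the part of these cells in the result was not tested. Over all 16 supporting lists, 140 genes were tested and none had an edgeR adjusted p under 0.05.

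**Figure D3:**
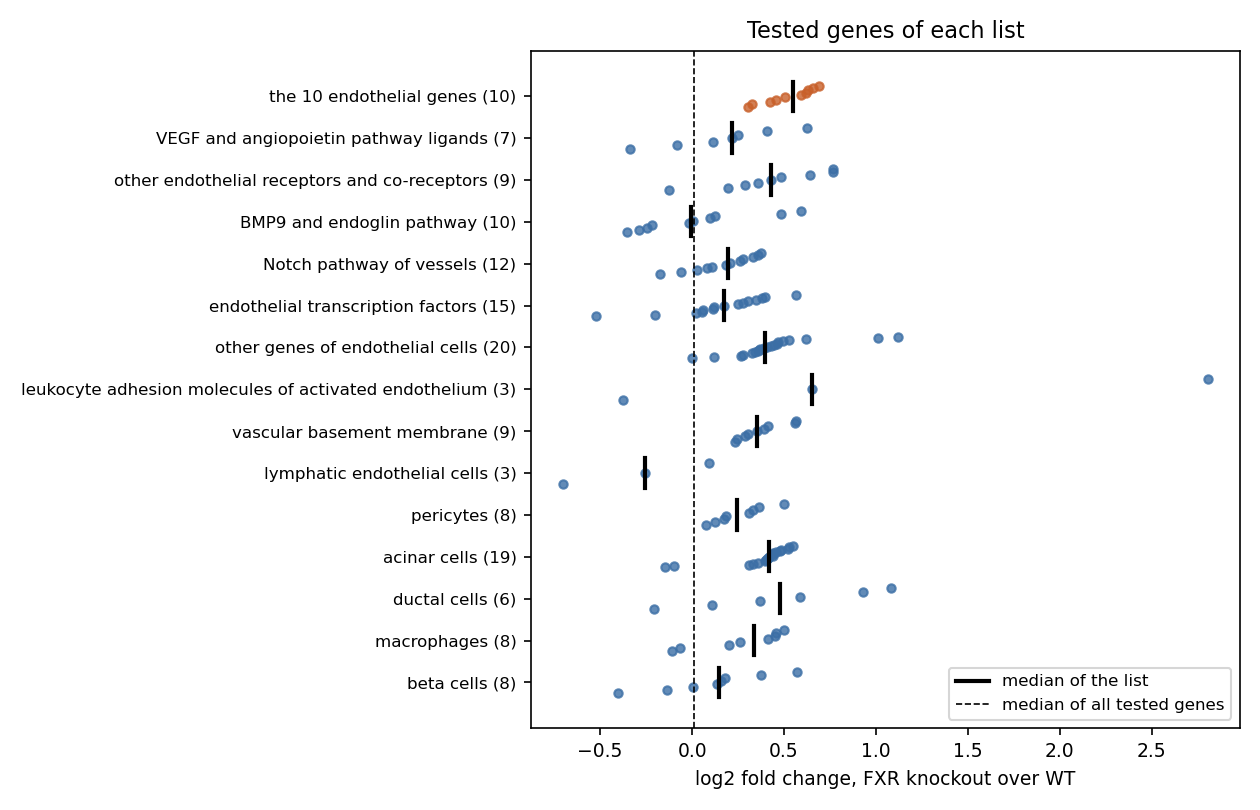
Log2 fold change of FXR knockout over WT from edgeR for each tested gene of the 10 endothelial genes (orange) and of 14 other lists with at least 3 tested genes (blue, number tested in brackets), with a bar at the median of each list and a dashed line at the median of all genes (0.01). The 10 genes have a median of 0.55, the other genes of endothelial cells 0.40, and the 3 tested genes of the lymphatic list -0.26.

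Across the 6 libraries the members varied together. Pearson's r between the log2 levels of 2 members was 0.71 to 0.99 with a median of 0.93 over 45 pairs, a description over libraries that also share genotype, depth and scaling. The genes whose log2 levels were most like the mean of the members, among 13526 tested genes with at least 1 CPM, were *Mmrn2*, *Nr2f6*, *Slc25a39*, *Sema3g*, *Syn1*, *Cotl1*, *Clic4*, *Tspan18*, *Olfr558* and *Ppard*, with r from 0.988 to 0.998. Without the libraries farthest from the median of the member mean, knockout male 1 and WT male 2, r of these genes was 0.905 to 0.998 over 4 libraries. The genes were picked by r over all 6 libraries, which include these 4, so this is no independent check. *Mmrn2*, an extracellular matrix protein of endothelium, stood first, at 20.1, 23.5 and 19.2 CPM in WT and at 24.6, 38.2 and 26.2 CPM in knockout libraries. The other most alike genes named above were in none of the gene lists used here, endothelial or other. Of the 19 listed endothelial genes with at least 1 CPM, 4 were among the 100 most alike, and their median r was 0.903, against 0.0121 over all genes.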

How the data were processed

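The authors deposited whole-number counts per gene for 19342 genes and counts per exon for 139263 exons, without normalization, and a DESeq comparison of the genotypes (fold changes and p-values), which was not used. Per the labels, polyadenylated RNA of islets was sequenced and HISAT was named. The build is that of the exon positions, GRCm38, and the counting rule, use of strand and versions are not given in the sources used here. Reads shared by overlapping genes may therefore be counted for either or neither.

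Gene counts of the 6 libraries (20629306 to 30139235 in all) entered edgeR 4.0.16 (R 4.3.3): filterByExpr (minimum count 10, minimum total 15), TMM scaling, then glmQLFit and glmQLFTest on a model of sex plus genotype. Adjusted p is that of Benjamini and Hochberg over all 14619 genes tested, with a threshold of 0.05. Standard errors were derived from the F statistic, CPM are counts relative to the TMM-scaled size of each library, and log2 levels used log2(CPM + 0.5). Permutation tests were exact over 20 relabellings and two-sided. The scripts were tested on simulated data.

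Members and gene lists were chosen with earlier results of these data known. Named genes are the 10 members, the ligands and receptors of the VEGF, angiopoietin and BMP9 pathways, in each other list the genes with an adjusted p under 0.05 or else the 2 with the smallest unadjusted p, and the 10 genes most alike by Pearson's r. Other genes named were chosen after their values were seen. *Col4a1*, *Ccl21a*, *Bmp10*, *Hba-a1* and *Hbb-bt* were listed but are not analysed here. The alternatives were other model terms, DESeq2 1.42.0, other dispersion estimates, scalings and filters, exon counts summed per gene, and each library left out. Males were also fitted alone. The block fitted with DESeq2 and the CPM without insulin and acinar genes were chosen after seeing the data.

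The replicate numbers of the labels were checked for pairing: deviations of same-numbered libraries from their genotype means had correlations across genes of 0.373 for female 1, 0.419 for male 1 and 0.346 for male 2, and those of other pairs at most 0.0628. The female 1 pair is also the only female pair, and the male 1 pair shares a high acinar share. Deviations cancel out within a genotype, so higher correlations in some pairs go with lower ones in others. The pairs are therefore not independent, and what the number marks is not stated. No pair of libraries of the same genotype agreed within sampling noise.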

Additional observations from a re-analysis of the deposited data

How the results depend on the processing

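All 10 members kept their direction in each of the 20 alternatives, with log2 fold changes from 0.05 to 0.82 and a median over the members of 0.31 to 0.67. These were not 20 separate checks. With 1 female library left out, the sex term takes up the other, so both such fits nearly repeat the fit of males alone. The members' median was 0.67 in all of them. No member was called in edgeR under any alternative. DESeq2 called 2 members (*Plvap* and *Emcn*) and 3 supporting genes (*Lyve1*, *Spp1* and *Mafa*), and DESeq2 with the replicate block called 7 members (all but *Kdr*, *Flt1* and *Esm1*) and 17 supporting genes, against 0 in the main test. The replicate block in edgeR changed no call of a member or supporting gene, with a median log2 fold change of 0.54 for the members. The log2 ratio of the summed level, 0.51, ranged from 0.26 to 0.64 as each library was left out and was lowest without knockout male 1. Scaling by library size alone moved the median of all genes to -0.09, and the members' median was then 0.45. Each member had at least 1874 counts over the 6 libraries, and each genotype had 3 libraries with 1 female. The parts of counting error and of spread between libraries in the standard errors were not compared.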
